A study of Mus musculus with 4 samples.

Results

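Potassium channel genes were taken as the protein-coding genes of the GENCODE M21 mouse annotation whose symbol begins with Kcn and a further lower-case letter, which gave 94 of 21938 protein-coding genes on chromosomes 1 to 19, X and Y. By symbol they comprised 77 genes for pore-forming subunits and 17 for auxiliary or regulatory subunits. The measured mark was H3K9ac, acetylation of lysine 9 on histone H3, which is typical of active promoters and enhancers. It was mapped with ChIP-seq, the sequencing of DNA pulled down with an antibody to the mark, in the mouse hippocampal cell line HT22 (spelled TH22 in the source field of the labels), whose cells are immortalised and divide. The cells had grown for 48 h in 70 µM choline chloride (supplemented) or 5 µM choline chloride (control), both in high-glucose medium with serum, and no further treatment or genetic change is named. There were 4 libraries, 2 of H3K9ac ChIP DNA and 2 of input DNA, which leaves no more than 1 ChIP library per level, and the labels do not tie a library to a level.

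The data are 45855 genomic regions in build mm10 that the authors' comparison called different between the levels, 45495 of them (99.2%) for supplemented choline and 360 for control choline. Condition 2 of the file is read as supplemented choline and condition 1 as control choline, because the region names put 5 before 70. Every statement on direction rests on that reading. Regions that both levels shared are not in the list and library depths are unknown, so a gene without a region may have carried H3K9ac equally at both levels or not at all. A level has no replicate, so the spread between cultures is unknown and no test was made. The list cannot establish cell identity either: of the marker genes examined, 4 of 12 for mature neurons, 2 of 6 for astrocytes, 1 of 6 for oligodendrocytes, 1 of 6 for microglia and 6 of 6 for fibroblasts had a region at a start, against 39.5% of all protein-coding genes, among them Rbfox3, Eno2 and Syn1 of neurons and Col1a1 and Vim of fibroblasts.

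Potassium channels let potassium leave or enter the cell and thereby set the resting potential, the shape of the action potential and the firing rate. Voltage-gated (Kv) alpha subunits assemble as tetramers that open on depolarisation. Inward rectifiers (Kir) and tandem-pore-domain (K2P) leak channels hold the resting potential, and calcium-activated channels couple firing to calcium entry. Auxiliary subunits alter gating or carry the pore subunits to the membrane. In hippocampal neurons, Kv4 channels carry the fast A-type current of dendrites, Kv2 channels the delayed rectifier of the soma and Kv7 channels the M-current that muscarinic receptors suppress.

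Potassium channel genes had few differential regions at their starts. A region overlapped the 1000 bp either side of an annotated transcript start in 12 of the 94 genes (12.8%, exact 95% binomial interval 6.77 to 21.2), against 8653 of 21844 other protein-coding genes (39.6%, 38.96 to 40.3) and 39.5% of all protein-coding genes. Genes with such a region are called marked. Supplemented-choline regions marked 11 of the 94 genes, against 39.2% of all protein-coding genes, and control-choline regions marked 1 gene, Kcnab1, against 0.88% of all. The 1 control-marked gene is 1.06% of the potassium channel genes, close to the background share. The marked genes were Kcna4, Kcnc1, Kcnd1, Kcnh2, Kcnj11, Kcnk2, Kcnk4, Kcnk7, Kcnn4, Kcnab1, Kcnab2 and Kcnab3. They held 18 regions, 17 for supplemented and 1 for control choline. Members of one class share ancestry and intervals cover counting over genes only, so they do not measure variation between cultures.

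**Figure D1:**
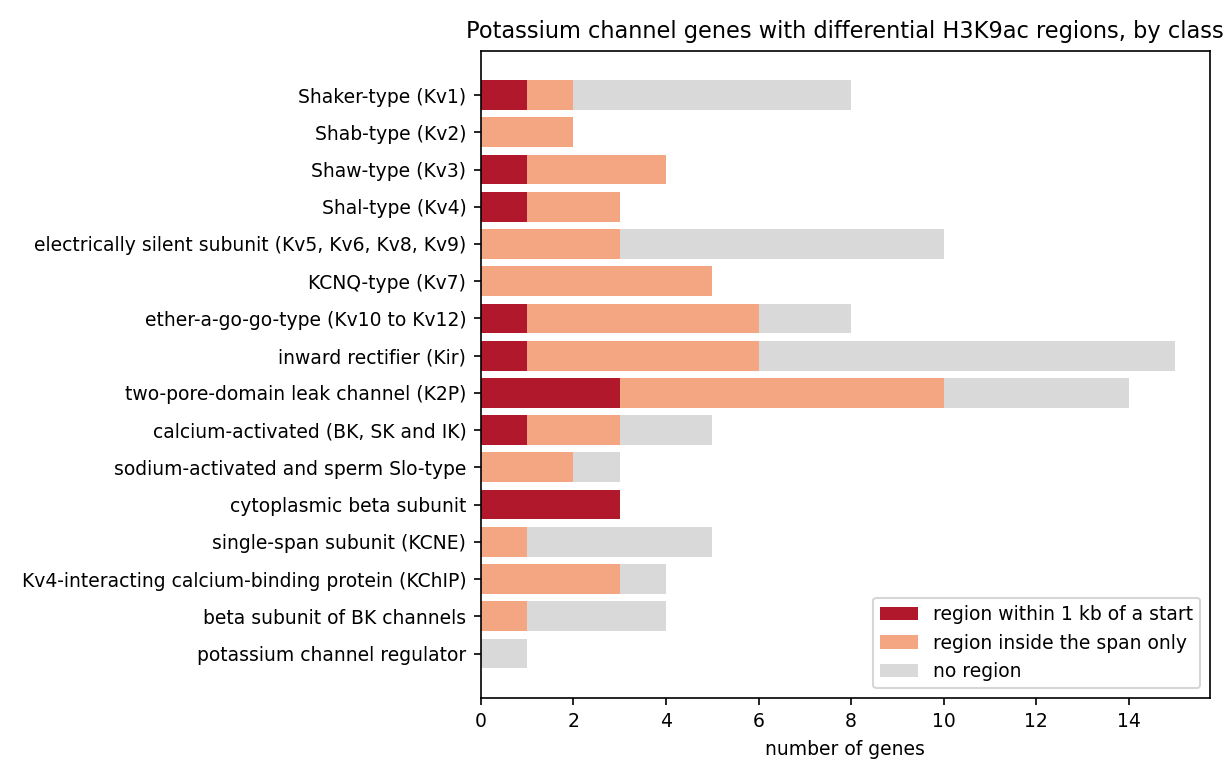
Horizontal bars count the 94 potassium channel genes in each class, divided into genes with a region within 1 kb of a start (12 in all, red), genes with a region inside the span only (42, orange) and genes with none (40, grey). All 3 cytoplasmic beta subunit genes are in the first category, and none of the 10 electrically silent or 5 KCNQ-type genes is. The exact interval of the beta subunit share, 29.2 to 100%, includes the 39.5% of all protein-coding genes.

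The sequences of 5 start-site regions are given to show how unlike they were in CpG content. They are read 5′ to 3′ on the strand of the gene from the RefSeq GRCm38.p6 genome, the same build as mm10, with CpG dinucleotides in capitals and any annotated untranslated bases at the edges left out. They are the control-choline region of Kcnab1, the CpG-rich regions of Kcnab2 and Kcnh2, and the highest-scoring regions at Kcnd1 and Kcnk4.
Kcnab1, control choline, chr3:65297187-65297434, plus strand, 1 CpG: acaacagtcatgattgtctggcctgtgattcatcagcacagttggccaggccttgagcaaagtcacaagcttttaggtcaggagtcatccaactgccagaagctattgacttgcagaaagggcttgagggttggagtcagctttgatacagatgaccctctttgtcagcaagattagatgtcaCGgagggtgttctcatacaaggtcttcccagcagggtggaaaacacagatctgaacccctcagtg
Kcnab2, supplemented choline, chr4:152477088-152477382, minus strand, 15 CpG: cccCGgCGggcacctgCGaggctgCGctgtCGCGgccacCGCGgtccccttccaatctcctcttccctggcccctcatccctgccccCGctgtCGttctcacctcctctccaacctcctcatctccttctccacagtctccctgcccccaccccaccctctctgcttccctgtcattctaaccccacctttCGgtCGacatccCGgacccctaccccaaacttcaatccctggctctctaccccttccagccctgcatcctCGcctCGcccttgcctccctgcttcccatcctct
Kcnh2, supplemented choline, chr5:24351100-24351283, minus strand, 12 CpG: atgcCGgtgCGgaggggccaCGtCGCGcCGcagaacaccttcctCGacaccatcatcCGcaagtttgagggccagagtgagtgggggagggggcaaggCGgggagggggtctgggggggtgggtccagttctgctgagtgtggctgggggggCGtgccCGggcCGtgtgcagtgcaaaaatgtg
Kcnd1, supplemented choline, chrX:7821428-7821575, plus strand, 4 CpG: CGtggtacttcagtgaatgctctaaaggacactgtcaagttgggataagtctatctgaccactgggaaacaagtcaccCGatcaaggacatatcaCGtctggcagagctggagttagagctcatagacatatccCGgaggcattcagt
Kcnk4, supplemented choline, chr19:6926858-6927032, minus strand, 7 CpG: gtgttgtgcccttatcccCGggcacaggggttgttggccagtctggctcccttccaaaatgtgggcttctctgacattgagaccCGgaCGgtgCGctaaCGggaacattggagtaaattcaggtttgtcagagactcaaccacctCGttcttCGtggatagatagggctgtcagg

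Among the Kv alpha subunits, each of 4 families had 1 marked gene. Of 8 Shaker-type (Kv1) genes, only Kcna4, which encodes a fast-inactivating A-type channel, was marked. Kcna4 (ENSMUSG00000042604.5) had a region at 107290879 to 107291010 on chromosome 2, in the untranslated part of exon 1, and the authors' deposited table gave it a score of 4.41. Its second region, at 107292350 to 107292555 in intron 1, had an authors' score of 9.45 and lay 955 bp from the other annotated start. The scores in this list run from 3.08 to 44.48, are the authors' own and rank regions within the list. Kcna1 and Kcna2, which encode the main axonal Shaker-type channels, had no region in their spans, and the nearest regions lay 32604 bp and 60151 bp from their starts.

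Of 3 Shal-type (Kv4) genes, Kcnd1 (ENSMUSG00000009731.4) was marked, with the strongest start-site region among the potassium channel genes. That region, at 7821428 to 7821575 on the X chromosome, ended 714 bp before the start of the gene and had an authors' score of 19.56, higher than 89.7% of the list. A second Kcnd1 region at 7822807 to 7822927 lay in the untranslated part of exon 1 (authors' score 10.93). Kcnd2 and Kcnd3, which encode the Kv4 subunits best known from neurons and heart, had no region within 1 kb of a start. Of 4 Shaw-type (Kv3) genes, whose channels sustain fast firing, Kcnc1 (ENSMUSG00000058975.7) had 1 region at 46423379 to 46423556 on chromosome 7, in intron 1 and 699 bp from an internal annotated start, with an authors' score of 15.65. Its midpoint was 26970 bp downstream of the gene's 5′-most start.

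Of 8 ether-a-go-go-type genes, Kcnh2 (ENSMUSG00000038319.14), whose human counterpart carries the rapid repolarising current of the heart, was marked. Its start-site region at 24351100 to 24351346 on chromosome 5 had its midpoint in the coding part of exon 1 and was the most GC-rich of the 18, with 71.7% G and C and 17 CpG sites. Its authors' score was 5.08, in the lower part of the list. The stretch shown for Kcnh2 begins with its ATG and runs through the coding part of exon 1 into intron 1. None of the 2 Shab-type (Kv2), 5 KCNQ-type (Kv7) and 10 electrically silent (Kv5, Kv6, Kv8 and Kv9) genes was marked. The unmarked genes thus included Kcnq3, which encodes an M-channel subunit.

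Of 14 K2P genes, 3 were marked: Kcnk2, Kcnk4 and Kcnk7. Kcnk4 (ENSMUSG00000024957.9), which encodes the mechanosensitive leak channel TRAAK, had a region at 6926858 to 6927032 on chromosome 19, over a noncoding exon and 5 bp from an internal annotated start. Its authors' score of 19.01 is a value that 2552 regions share, more than any other value, so its rank is of limited meaning. Kcnk7 (ENSMUSG00000024936.8), a family member for which no channel current has been established in heterologous cells, had a region over the coding part of exon 1 at 5704453 to 5704674 (authors' score 9.99). A further Kcnk7 region at 5703352 to 5703481 ended 886 bp before the start and had an authors' score of 13.07. Kcnk2 (ENSMUSG00000037624.15), which encodes the related channel TREK-1, had 1 region at 189216025 to 189216221 on chromosome 1 with an authors' score of 4.40. This Kcnk2 region lay 808 bp from an internal annotated start but its midpoint was 186150 bp downstream of the 5′-most start, and 71.1% of its bases were soft-masked as repeats, the highest share among the 18 regions.

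Of 15 Kir genes, Kcnj11 was the only one marked. Kcnj11 (ENSMUSG00000096146.2) encodes the pore of the ATP-sensitive potassium channel, and its region at 46098634 to 46098808 on chromosome 7 lay 208 bp from an internal annotated start, with an authors' score of 4.03. The midpoint of this Kcnj11 region was in the untranslated part of an exon, 2043 bp downstream of the 5′-most start. These untranslated bases were on the 3′ side of the region, after bases of the coding sequence. The gene for the regulatory partner of this pore, the sulfonylurea receptor gene Abcc8, lies 3758 bp away and was marked too, by a supplemented-choline region at 46106200 to 46106382 with an authors' score of 19.72. Marked means within 1 kb of any annotated start, which for Abcc8 need not be the 5′-most one. The Abcc8 region lies near the end of that gene's span that faces Kcnj11, and its distance from the 5′-most Abcc8 start is not given here. Neither region of this pair is therefore shown to lie at a 5′-most start. The paralogous pair, Kcnj8 and Abcc9, which lie 16247 bp apart on chromosome 6, were both unmarked and had no region in their spans. Also unmarked were Kcnj3, Kcnj6 and Kcnj9, which encode the neuronal G-protein-gated channels, and Kcnj10, the main Kir gene of astrocytes.

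Of 5 genes for calcium-activated alpha subunits, Kcnn4 was marked. Kcnn4 (ENSMUSG00000054342.8) encodes the intermediate-conductance channel, known from lymphocytes, red cells and epithelia, and its region at 24383903 to 24384064 on chromosome 7 had an authors' score of 7.99. The region was 849 bp from an internal annotated start and 13720 bp downstream of the 5′-most start. Kcnma1, which encodes the large-conductance BK channel, and the small-conductance genes Kcnn1, Kcnn2 and Kcnn3 were unmarked, as were the sodium-activated Kcnt1 and Kcnt2 and the sperm-specific Kcnu1.

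**Figure D2:**
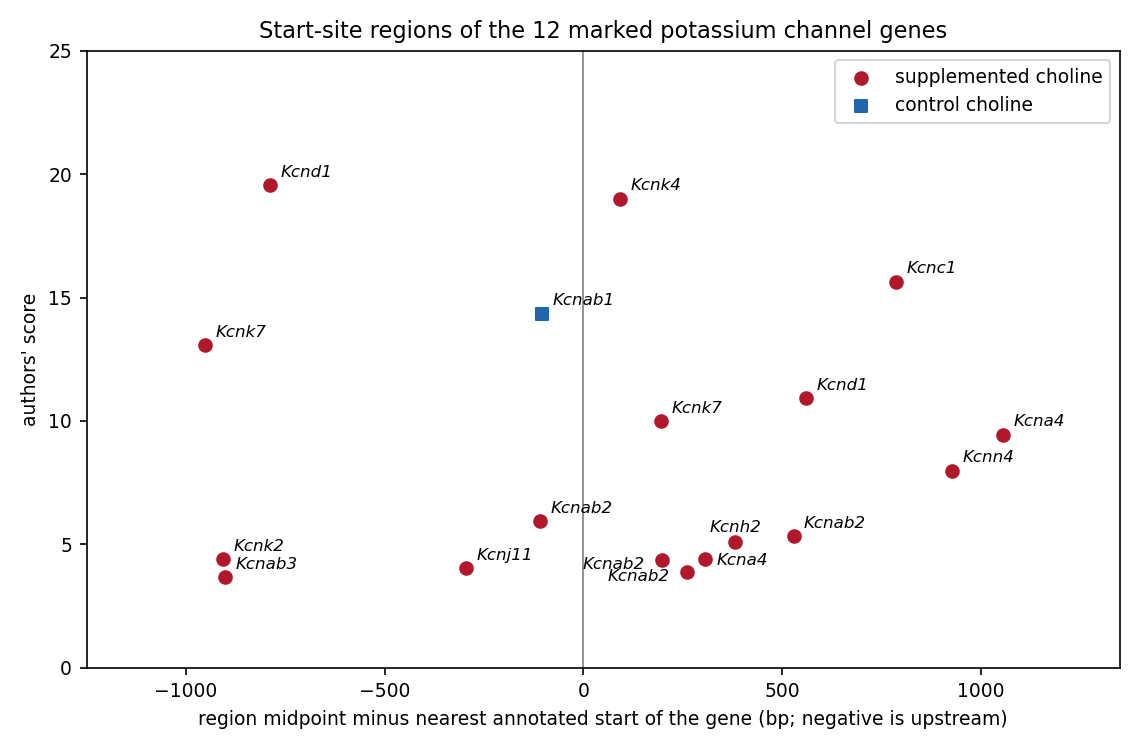
Each point is 1 of the 18 start-site regions, placed by the distance of its midpoint from the nearest annotated start of the gene in bp (x axis, negative upstream) and by the authors' score (y axis). Red circles are supplemented-choline regions and the blue square is the control-choline region at Kcnab1, which has a score of 14.35, above most of the others.

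Cytoplasmic beta subunits, which bind Shaker-type alpha subunits and have the fold of aldo-keto reductases, were the only class with every gene marked, 3 of 3. The exact interval of this share, 29.2 to 100%, includes the 39.5% of all protein-coding genes. The genes were not marked alike. Kcnab1 was marked by a control-choline region, and Kcnab2 and Kcnab3 by supplemented-choline regions. The only Kcnab3 region and most of the Kcnab2 start-site regions also lay near a start of another coding gene. Kcnab1 (ENSMUSG00000027827.16) carried the only control-choline region among the 94 genes, at 65297187 to 65297434 on chromosome 3 with an authors' score of 14.35. An internal annotated start lies inside it, 48.8% of its bases were G or C, and the 5′-most start of Kcnab1 was 187926 bp upstream of its midpoint. The span of Kcnab1 held 4 further regions, all for supplemented choline and all in introns, with authors' scores of 5.01, 11.21, 11.55 and 19.60. The antisense gene A330015K06Rik covers the control-choline region and both of the intron 1 regions. The sense-overlapping noncoding gene AC113458.1 also covers both of the intron 1 regions. Signal in these regions therefore cannot be assigned to any 1 of the genes that cover them.

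Kcnab2 (ENSMUSG00000028931.11) had 4 start-site regions, the most among the 94 genes, with authors' scores between 3.86 and 5.95. Of these, 3 lay between 152476788 and 152477773 on chromosome 4 and held 10, 15 and 19 CpG sites. All 3 were inside Nphp4, a gene of the ciliary transition zone, and within 1 kb of its start, so the genes cannot be told apart there. The 4th, at 152448420 to 152448541, was 200 bp from an internal start of Kcnab2 and not near another coding start. Kcnab3 (ENSMUSG00000018470.8) had 1 region, at 69325214 to 69325499 on chromosome 11, with an authors' score of 3.67, the lowest of the 18. It lay inside Trappc1, which encodes a subunit of the TRAPP vesicle-tethering complexes, within 1 kb of a start of that gene, and ended 759 bp upstream of Kcnab3. Of the remaining 14 auxiliary genes none was marked: 5 KCNE genes, 4 KChIP genes (Kcnip1 to Kcnip4), 4 BK beta subunit genes (Kcnmb1 to Kcnmb4) and Kcnrg.

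The choice of start mattered for several of the marked genes. With the 5′-most start alone, 6 genes were marked (6.38%), against 32.7% of other genes. Kcna4, Kcnd1, Kcnh2, Kcnk7, Kcnab2 and Kcnab3 remained, and Kcnab1, Kcnc1, Kcnj11, Kcnk2, Kcnk4 and Kcnn4 were marked at an alternative start only. The 1 kb limit divides genes whose distances differ little: just inside it were Kcnab3 (759 bp), Kcnk2 (808 bp) and Kcnn4 (849 bp), and just outside Kcna10 (1063 bp), Kcnk13 (1136 bp), Kcnma1 (1165 bp) and Kcnh3 (1213 bp). The region nearest Kcna10, in its intron 1, had an authors' score of 21.76, above every start-site region of the 12 marked genes. With windows of 2500 bp, 27 potassium channel genes were marked (28.7%), against 46.5% of other genes, and without the regions scored below the median of the list 7 were (7.45%), against 14.7%. Among the 82 unmarked genes the nearest region lay at a median distance of 20775 bp from a start, within 2500 bp in 15 genes and over 100 kb away in 13. It was farthest for Kcnh7, at 884415 bp, and Kcnn2, at 439123 bp, both genes without a region anywhere in their spans.

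The strongest start-site region per marked gene had a median authors' score of 8.72 over the 12 potassium channel genes (range 3.67 to 19.56), against 5.68 over the 8653 other marked genes, whose quartiles were 4.51 and 8.73. The order-statistic 95% interval of the median of the potassium channel genes, from 4.40 to 15.65, includes the median of the other genes. Of the 12 genes, 8 had a single start-site region, and 54.1% of other marked genes did. The 18 regions had a median width of 187.5 bp, 54.5% G and C and a median of 4.5 CpG sites, and the 13302 regions at starts of other genes 185 bp, 54.7% and 6 CpG sites.

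The CpG content of starts, which in mammals is often high at genes used in many tissues, was compared next. All protein-coding genes were divided into 3 equal groups by the CpG content of their start windows. The union of the start windows held a median of 2.93 CpG sites per 100 bp in the potassium channel genes and 2.13 in other genes, and 51 of the 94 fell in the CpG-rich group, above 2.80 CpG per 100 bp. In the 300-base promoters of the RefSeq table the order was the other way round. They held a median of 9 CpG sites in potassium channel genes (94 promoters of 69 genes) and 14 in other genes (20056 promoters). These promoters differ from the start windows in the genes and starts covered as well as in width, and which of these matters was not tested. In the CpG-rich group of start windows 4 of 51 potassium channel genes were marked (7.84%, exact 95% interval 2.18 to 18.9), against 4042 of 7232 other genes (55.9%, 54.7 to 57.04). In the middle group the counts were 6 of 25 (24.0%, 9.36 to 45.1) and 3749 of 7317 (51.2%, 50.1 to 52.4). In the CpG-poor group, up to 1.54 CpG per 100 bp, they were 2 of 18 (11.1%, 1.38 to 34.7) and 862 of 7295 (11.8%, 11.1 to 12.6), nearly the same share. The intervals of the 2 sets of genes were thus apart in the CpG-rich and middle groups and overlapped in the CpG-poor group.

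**Figure D3:**
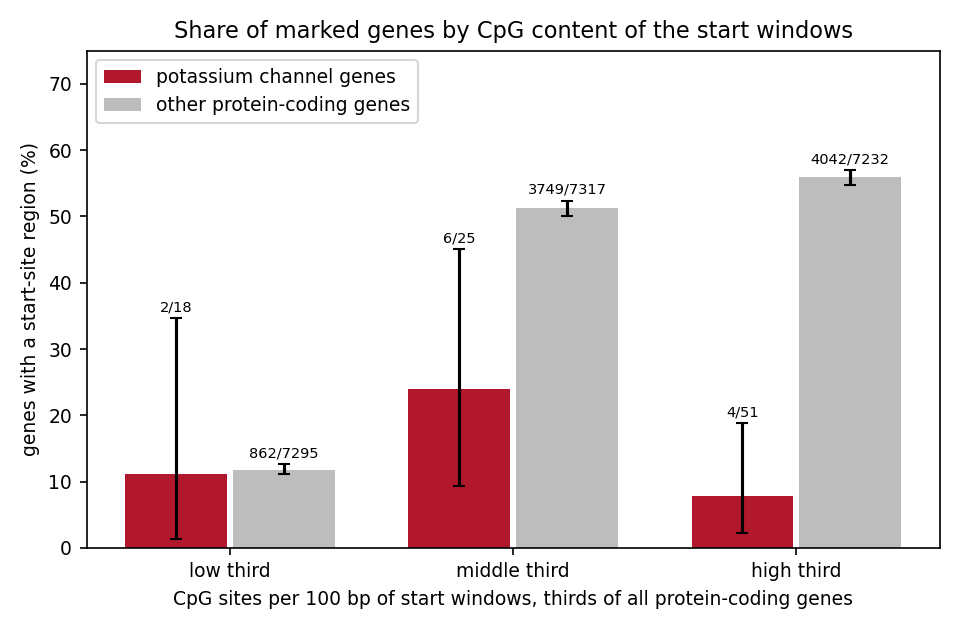
Bars give the percentage of genes with a start-site region in 3 equal groups of CpG content of the start windows (low, middle, high), for potassium channel genes (red, left) and other protein-coding genes (grey, right), with exact 95% binomial intervals and counts above. The share of other genes is 11.8% in the low group and 55.9% in the high group, and that of potassium channel genes 11.1% and 7.84%.

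CpG-dense starts among the potassium channel genes included those of Kcng3 (11.1 CpG per 100 bp), Kcnk12 (9.60), Kcnc4 (9.35), Kcna3 (7.50), Kcnj4 (7.35), Kcnk9 (6.90) and Kcnd2 (6.85). None of these 7 genes was marked, and each has a single annotated start. Among the marked genes the highest value was that of Kcnc1 (5.51), taken over the windows of its 3 annotated starts together and not at the marked start alone. Marked potassium channel genes had a median of 2.17 CpG per 100 bp and unmarked ones 3.12, the reverse of the order in other genes (2.70 marked, 1.57 unmarked). These values cover all start windows of a gene and do not describe the marked starts alone. The median number of starts was 5 in marked and 2 in unmarked genes, for potassium channel genes and for other genes alike.

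Genes with more annotated starts have more sequence in which a region can fall. The median number of distinct starts was 3 in potassium channel genes and 3 in other genes. With 1 start, 0 of 19 potassium channel genes were marked (exact upper limit 17.6%) and 16.1% of other genes. With 2 or 3 starts the counts were 5 of 41 (12.2%) and 28.3% of other genes, and with 4 or more 7 of 34 (20.6%, 8.70 to 37.9) and 58.6% of other genes. The share of the potassium channel genes was below that of other genes in each of these strata.

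For 69 of the 94 genes the RefSeq table of promoter sequences (GRCm38.p6, 250 bases before to 50 after a start) held 94 promoters, 16 of them of 9 marked genes. On either strand the GC box GGGCGG occurred in 47.9% of these promoters and 47.8% of 20056 promoters of other protein-coding genes. The TATA box TATAAA occurred in 5.32% and 12.2%, the CCAAT box in 30.9% and 37.9%, the AP-1 site TGANTCA in 4.26% and 7.01%, and the E-box CANNTG in 73.4% and 68.6%. The cAMP response element TGACGTCA was in 0 of 94 promoters and in 2.32% of the other promoters. An approximate upper limit for the 0, taken as 3 counts in 94, is 3.19%. It treats promoters of the same gene as separate. A match is a description of letters and not of a bound site, and the CCAAT and E-box letters can overlap those of other motifs.

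Inside the gene spans the picture differed from that at starts. Of the 94 genes, 53 had a region in their span (56.4%, exact 95% interval 45.8 to 66.6), against 52.0% of other genes (51.4 to 52.7) and 52.1% of all protein-coding genes. The spans held 119 distinct regions, 118 for supplemented and 1 for control choline, and Kcnab1, the 1 gene with a control-choline region in its span, is to be read beside 1.11% of all protein-coding genes. In 46 genes (48.9%) a region lay in the span more than 1 kb from every start of the gene, against 36.5% of other genes and 36.6% of all. In all, 42 genes had span regions without a start-site region, 11 had both, Kcnab3 had a start-site region only, and 40 had neither.

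Length has to be read beside this, since potassium channel genes are long. Their median span was 30.8 kb, against 17.4 kb in other genes, and 47 of them were in the longest of 3 equal groups of genes, above 31.9 kb. Per 100 kb of summed span they held 1.14 regions, against 3.02 in other genes, and away from starts 1.00 against 1.93. In the longest group the density was 0.915 in potassium channel genes and 2.19 in other genes. Among unmarked genes alone, the densities were closer, with 0.968 per 100 kb in potassium channel genes and 1.20 in other genes.

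The counts by class are to be read beside gene length, since span regions were found in 72.9% of other genes in the longest group, 55.4% in the middle group and 27.9% in the shortest. Span regions were found in all 5 KCNQ-type and both Shab-type genes, all of them in the longest group, and in all 4 Shaw-type and all 3 Shal-type genes, which are in the longest or middle group. They were found in only 2 of 8 Shaker-type genes, whose spans run from 1.90 to 32.3 kb, and 3 of 10 electrically silent genes. Span regions were present in 10 of 14 K2P, 6 of 8 ether-a-go-go-type, 6 of 15 Kir, 3 of 5 calcium-activated and 3 of 4 KChIP genes. Among BK beta subunits only Kcnmb2, and among KCNE genes only Kcne2, had one. Of the 16 potassium channel genes of 250 kb or more, 13 had a region in the span, against 83.4% of 721 other genes of that length. Among these 16 genes 1, Kcnab1, had a region at a start, against 32.6% of the other genes of that length. The longest, Kcnip4 (1135.4 kb), which encodes a calcium-binding partner of Kv4 channels, had 4 regions, Kcnma1 (725.1 kb) had 3 and Kcnd2 (514.3 kb) had 1.

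**Figure D4:**
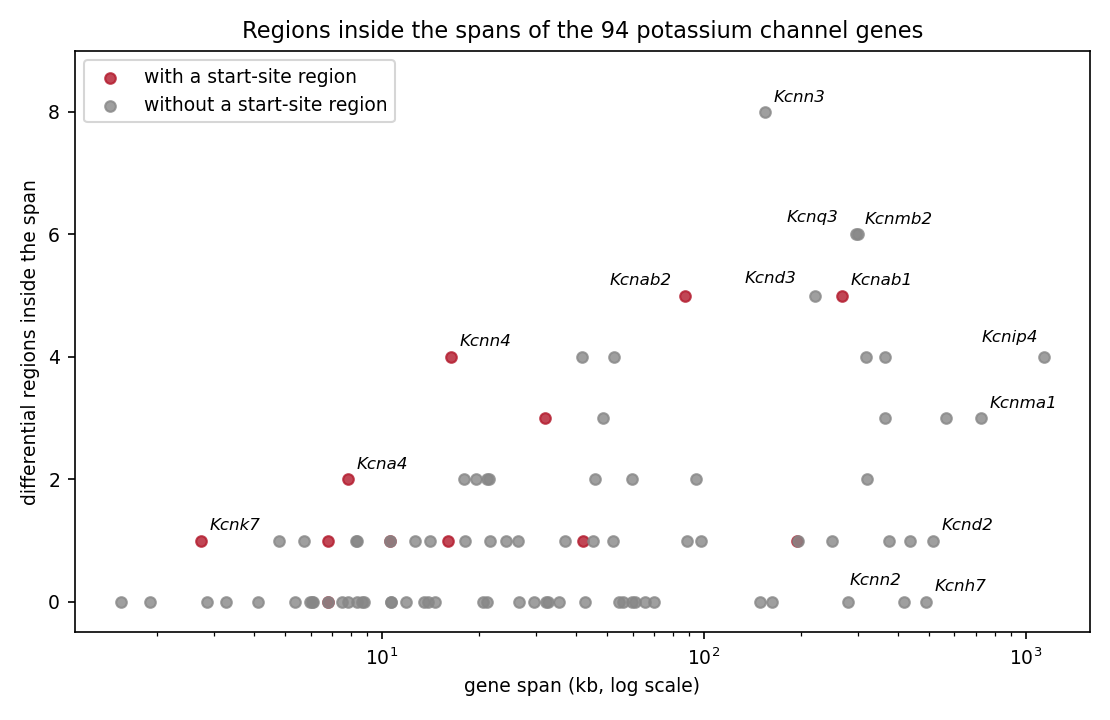
Each point is 1 of the 94 genes, placed by the length of its span in kb (log scale) and by the number of regions inside the span, in red for genes with a start-site region and grey for the rest. Kcnn3 leads with 8 regions, and Kcnh7 and Kcnn2 have none over spans of 490.9 kb and 417.2 kb.

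Kcnn3, which encodes the small-conductance calcium-activated channel SK3, had the most regions, 8 in 155.0 kb (5.16 per 100 kb), with authors' scores between 4.88 and 16.88. They spread from 2973 bp to 153087 bp downstream of the 5′-most start, in introns 1 to 3 and, for the last, in a noncoding exon. Kcnq3, an M-channel subunit gene, had 6 regions, all in intron 1, of which 3 had the most frequent score, 19.01. Kcnmb2, which encodes an inactivating BK beta subunit, also had 6, all in intron 1, with authors' scores from 3.59 to 23.95. Kcnd3 had 5 regions, of which the last, at 105673830 to 105674010 on chromosome 3, reached past the 3′ end of the gene. Kcnab1 and Kcnab2 had 5 each.

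Genes with 4 regions each included Kcnh1, Kcnk5, Kcnn4, Kcnip1 and Kcnip4. Kcnk5, which encodes an alkaline-activated K2P channel, had all 4 in intron 1 with authors' scores from 3.51 to 20.93, and Kcnip1 all 4 in intron 1 with authors' scores from 4.15 to 14.22. In Kcnh1, the ether-a-go-go gene of the brain, 3 of 4 authors' scores were 19.01 or higher.

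**Figure D5:**
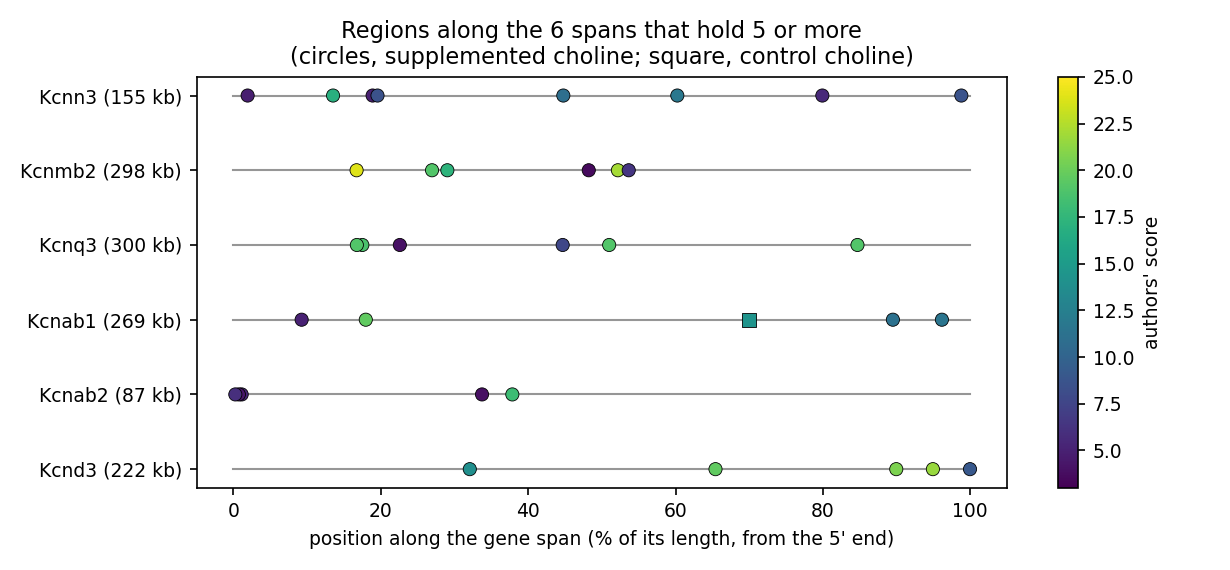
Lines are the spans of the 6 potassium channel genes with 5 or more regions, scaled to 100% of their length from the 5′ end, with lengths in kb beside the names. Markers are regions coloured by the authors' score, and the single square is the control-choline region of Kcnab1, beyond the middle of the gene.

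The strongest regions of the potassium channel genes lay in introns. A region in intron 1 of Kcnk9, which encodes the acid-sensitive leak channel TASK-3, at 72528518 to 72528670 on chromosome 15, had an authors' score of 33.02, rank 12 among the 45855 regions. It lay 17670 bp from the only annotated start. Next came a region in intron 1 of Kcnc4, at 107456809 to 107457018 on chromosome 3, with an authors' score of 25.87 and rank 311. Kcnmb2 (23.95 and 22.04 by the authors' score) and Kcnh1 (22.14) followed. Both leading sequences, unlike those at CpG-rich starts, hold 1 CpG each, shown in capitals, on the strand of the gene.
Kcnk9, supplemented choline, chr15:72528518-72528670, minus strand, 1 CpG: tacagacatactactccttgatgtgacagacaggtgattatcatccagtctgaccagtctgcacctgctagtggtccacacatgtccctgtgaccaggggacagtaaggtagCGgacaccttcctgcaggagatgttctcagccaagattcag
Kcnc4, supplemented choline, chr3:107456809-107457018, minus strand, 1 CpG: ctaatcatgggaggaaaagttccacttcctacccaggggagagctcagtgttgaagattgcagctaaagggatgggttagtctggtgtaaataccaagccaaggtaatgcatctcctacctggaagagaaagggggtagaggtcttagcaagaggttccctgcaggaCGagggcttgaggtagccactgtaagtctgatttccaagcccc

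The 104 regions away from the genes' own starts had a median authors' score of 12.80, against 8.50 for 19478 such regions in other genes and 6.64 for the whole list. Of the 104, 72 (69.2%) were at or above the median of the list, against 58.7% in other genes. The most frequent value, 19.01, was carried by 12 of the 104 (11.5%) and by 6.25% of such regions in other genes. Introns held 91 of the 104 midpoints (87.5%), against 87.1% in other genes. Soft-masked repeats made up most of the bases in 11 of the 104 (10.6%), against 12.9% in other genes. Median width was 165.5 bp and median G and C 49.7%, against 166 bp and 49.4% in other genes.

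Kcnq1, which encodes the alpha subunit of the slow repolarising cardiac current, held 2 regions in intron 11. That at 143295263 to 143295519 on chromosome 7 had an authors' score of 5.33, 16 CpG sites and 58.8% G and C. It lay inside the imprinted antisense gene Kcnq1ot1, 1030 bp from the start of that gene and 186069 bp from the nearest start of Kcnq1. The mark there cannot be assigned to 1 of these genes. The other, at 143304889 to 143305019, held no CpG and had an authors' score of 6.18. Kcnk13, of the halothane-inhibited K2P subfamily, had a region in the untranslated part of exon 2 with 21 CpG sites, the most among all 122 regions at the potassium channel genes, and an authors' score of 5.45.

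Some potassium channel genes lie close together. There were 9 pairs with gaps of at most 100 kb, and none of the genes in them was marked, so whether neighbours are marked together cannot be read from them. They included Kcna3, Kcna2 and Kcna10 in a row on chromosome 3, Kcna1 and Kcna6 on chromosome 6, Kcnj9 and Kcnj10 on chromosome 1, and Kcnj5 and Kcnj1 on chromosome 9. Kcnmb1 lies inside Kcnip1, and the 4 regions of Kcnip1 fell outside it.

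Partner genes outside the Kcn symbols and other channel families gave the following counts, to be read beside 39.5% of all protein-coding genes. Of 14 other genes of potassium channel complexes or of related cation channels, 3 were marked (21.4%, exact 95% interval 4.66 to 50.8): Abcc8, the pacemaker channel gene Hcn3 (authors' score 22.65) and Tmem175, which encodes a lysosomal potassium channel (6.01 by the authors' score). Unmarked genes of this list included Abcc9, Amigo1, Dpp6, Dpp10, Lrrc26, Lrrc38, Lrrc52 and Lrrc55. Voltage-gated sodium channel genes were marked in 2 of 14 cases (14.3%, 1.78 to 42.8), among them Scn8a, and voltage-gated calcium channel genes in 7 of 26 (26.9%, 11.6 to 47.8). Chloride channel genes were marked in 6 of 10 cases (60.0%, 26.2 to 87.8). The interval of the potassium channel genes (6.77 to 21.2) overlapped those of the partner, sodium and calcium channel genes and was apart from that of the chloride channel genes. The intervals of these 4 lists, partner, sodium, calcium and chloride channel genes, all include the share of all protein-coding genes.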

How the data were processed

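Per the labels' protocols, chromatin of HT22 cells was immunoprecipitated and sequenced. The submitters' processing notes name build mm10, MACS2 without a version, Bowtie 1.0.0 and CASAVA 1.8. Per the series' design text, the bdgdiff function of MACS2 compared the levels. The deposited list gives each region a position and a score, with regions unique to a condition only, per the file headers. The file does not name the score column, which in bdgdiff output is as a rule a log10 likelihood ratio. The scaling of the libraries is unknown, and unequal depth or enrichment could shift regions toward one level.

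Regions were set against GENCODE M21 with Python 3.11.15, pandas 2.3.3, SciPy 1.17.1 and pysam 0.24.0. A start-site region overlapped by at least 1 bp a window of 1000 bp on each side of any transcript start of the gene, and a span region overlapped the gene body by at least 1 bp. Coordinates count from 1. The 3 groups of CpG content and of length were cut over all 21938 protein-coding genes. Shares of genes have exact (Clopper-Pearson) 95% intervals, which cover counting only. The limit for the cAMP response element is approximate. The overlap code was tested on simulated data. No tests were run, because a level has at most 1 ChIP library. The potassium channel genes, the gene lists and the comparisons were chosen with earlier results of these data known. Every marked gene was named, as were the genes with the most span regions (ties included), and the 5 strongest regions away from starts. Other windows, starts, overlaps, chromosomes and subsets of regions were tried. Results for a few genes of these lists are not reported here.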

Additional observations from a re-analysis of the deposited data

How the results depend on the processing

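No paired analysis was possible because the deposited list holds no values of single libraries. The number of marked potassium channel genes, 12 of 94, was 27 with windows of 2500 bp (28.7%, against 46.5% of other genes), 7 when regions scored below the median of the list were left out (7.45%, against 14.7%) and 6 with the 5′-most start alone (6.38%, against 32.7%). It stayed between 8 and 12 under the other 7 settings, which were windows of 500 bp, region midpoints, overlaps of at least 100 bp, autosomes only, supplemented-choline regions only, no regions at the 2 commonest scores and no start windows shared with another coding gene. Under all 10 settings the share was below that of other genes. The number with a span region, 53, stayed between 45 and 53 under 6 settings. Without the regions below the median it was 47.9%, against 34.7% of other genes. The median score of the strongest start-site region, 8.72, ranged from 5.52 to 14.35 and was above the median of other marked genes under all 10 settings. The unknown depth of the libraries and the lack of shared regions and replicates limit every count.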
